A study of Mus musculus with 24 samples.

Results

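Meox1, Meox2, Pax3, Pax7, Tcf15 and Nkx3-2 are transcription factor genes that pattern the somites, the paired blocks of paraxial mesoderm beside the neural tube. These 6 genes, of 19938 genes measured, were chosen by name with the values and fold changes of these same arrays already in view, without a threshold, so their levels and differences are given as a description with no test. Expression had been profiled on Affymetrix Mouse Gene ST 1.0 arrays in microdissected anterior heart field (AHF) tissue of mouse embryos at E9.5 with 19 to 21 somite pairs. There were 24 arrays, 4 in each of 6 groups, and each experiment set a KO group against a Ctrl group of its own. According to the labels and methods, Tbx1 KO embryos carried the Mef2c-AHF-Cre driver with Tbx1 f/- or Tbx1 f/f, Bcat KO embryos carried the driver with β-catenin f/f, and Rescue KO embryos were Tbx1 KO embryos with 1 β-catenin flox allele added. The Ctrl genotype was not settled: the methods give Cre-free f/+ embryos of each cross (Tbx1 f/+ for Tbx1 Ctrl, β-catenin f/+ for Bcat Ctrl and both alleles for Rescue Ctrl), whereas the labels describe wild type and Mef2c-AHF-Cre/+;Tbx1 f/+ littermates. The driver acts in the AHF lineage, the dissected piece held the pharyngeal arches behind the first with every cell type in them, and embryos were pooled for each array. The methods place the heart tube outside the dissected piece. They describe the Tbx1 lines as congenic in Swiss Webster and the β-catenin lines as of mixed C57Bl/6 and Swiss Webster background. The rescue females came from an inbred line of that mixed background. Values were deposited as log2 intensities after RMA normalization, so 1 unit is a doubling, and levels of different genes cannot be set against each other because each is read by its own probe set. The array medians lay between 8.0 and 8.14.

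Somites form in sequence from presomitic mesoderm and then split into the sclerotome, which gives vertebrae and ribs, and the dermomyotome, which gives dermis and skeletal muscle. Tcf15, also called paraxis, is a bHLH factor needed for somite epithelium, and the homeodomain factors Meox1 and Meox2 act in somite patterning and in limb muscle. Pax3 marks the dermomyotome and the migrating muscle precursors, Pax7 marks dermomyotome and later muscle progenitors, and Nkx3-2 (Bapx1) is a homeodomain factor of the sclerotome. Several of them are also used elsewhere: Pax3 and Pax7 in dorsal neural tube and neural crest, and Nkx3-2 in the jaw and gut mesenchyme.

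Each gene was read by 1 probe set. In the GRCm38.p6 build Meox1 lies on chromosome 11 (101877510 to 101894354), Meox2 on chromosome 12 (37108540 to 37179534), Pax3 on chromosome 1 (78101267 to 78197136), Pax7 on chromosome 4 (139737059 to 139833530), Tcf15 on chromosome 2 (152143056 to 152149097) and Nkx3-2 on chromosome 5 (41761483 to 41764220). RefSeq promoters were matched for 3 of the 6 genes, Meox2, Pax7 and Nkx3-2, and not for Meox1, Pax3 and Tcf15. The table's Pax7 window lies inside the annotated Pax7 gene and is not shown. The 250 bases before the Meox2 and Nkx3-2 starts are shown, Meox2 because it had the widest range of the 6 genes and Nkx3-2 as the other gene with a window outside its gene. Capitals mark E-boxes, CANNTG, the letters bound by bHLH factors such as Tcf15, and the homeodomain core TAAT on either strand.
Meox2, chr12:37108290-37108539, plus strand: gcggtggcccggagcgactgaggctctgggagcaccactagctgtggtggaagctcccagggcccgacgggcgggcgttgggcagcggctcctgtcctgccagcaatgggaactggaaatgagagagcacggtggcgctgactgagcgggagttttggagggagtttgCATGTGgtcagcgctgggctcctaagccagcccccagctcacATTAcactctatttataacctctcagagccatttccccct
Nkx3-2, chr5:41764221-41764470, minus strand: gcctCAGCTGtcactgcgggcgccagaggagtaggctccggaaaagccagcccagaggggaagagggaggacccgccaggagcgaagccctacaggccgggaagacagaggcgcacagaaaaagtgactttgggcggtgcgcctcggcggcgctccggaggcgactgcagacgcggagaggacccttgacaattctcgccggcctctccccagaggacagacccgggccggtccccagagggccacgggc
An E-box stood 82 bases before the Meox2 start and 246 bases before the Nkx3-2 start. Of 32851 promoters, 66.2% held an E-box in the same window. TAAT was found 40 bases before the Meox2 start, on the minus strand, and in 54.9% of all promoters. Neither AGGTGTGA, searched as a T-box half-site and present in 1.12% of promoters, nor CTTTGA, searched as a TCF/LEF core and present in 13.8%, was found on either strand of the 2 windows. The GC content was 62.0% for Meox2 and 68.8% for Nkx3-2, against a median of 52.4% over all promoters. These letter matches overlapped no other motif searched and are descriptions only.

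Tbx1 KO tissue had a lower mean than Tbx1 Ctrl tissue for all 6 genes, with Meox2 and Pax3 furthest down and Pax7 at only -0.02. Over all genes, 58.7% had a lower mean in Tbx1 KO. In the Bcat and Rescue experiments the 6 differences were between -0.13 and 0.22, and the outermost were both Meox1, at 0.22 in Bcat KO and -0.13 in Rescue KO. The 0.22 lay above the central 95% of all genes in the Bcat experiment, whose upper end was 0.19. The SD of single arrays around their group mean was 0.24 for Meox1, 0.48 for Meox2 and 0.29 for Pax3, against a median of 0.11 over all genes. The places of these genes among all genes are therefore description only. The median log2 difference of the 6 genes was -0.28 in Tbx1 KO, against -0.01 over all genes, 0.09 in Bcat KO, against 0.01, and -0.02 in Rescue KO, against -0.02. In none of the 3 experiments did the KO arrays of any of the 6 genes separate from the Ctrl arrays. Over all genes, every KO array lay below every Ctrl array for 0.973% in the Tbx1 experiment, 0.787% in the Bcat experiment and 2.24% in the Rescue experiment, and above every Ctrl array for 1.32%, 2.06% and 0.737% in the same order of experiments. With limma and an adjusted p under 0.05, 0.0301% of genes (6 of 19938, Tbx1 among them) were called in the Tbx1 experiment. In the Bcat and Rescue experiments 0% were called, and 1140 and 253 genes had an unadjusted p under 0.05, against 821 in the Tbx1 experiment. Because the 6 genes were chosen on these contrasts, nothing about them is read from those shares. In whole tissue, fewer cells of a type and less RNA per cell cannot be told apart.

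**Figure D1:**
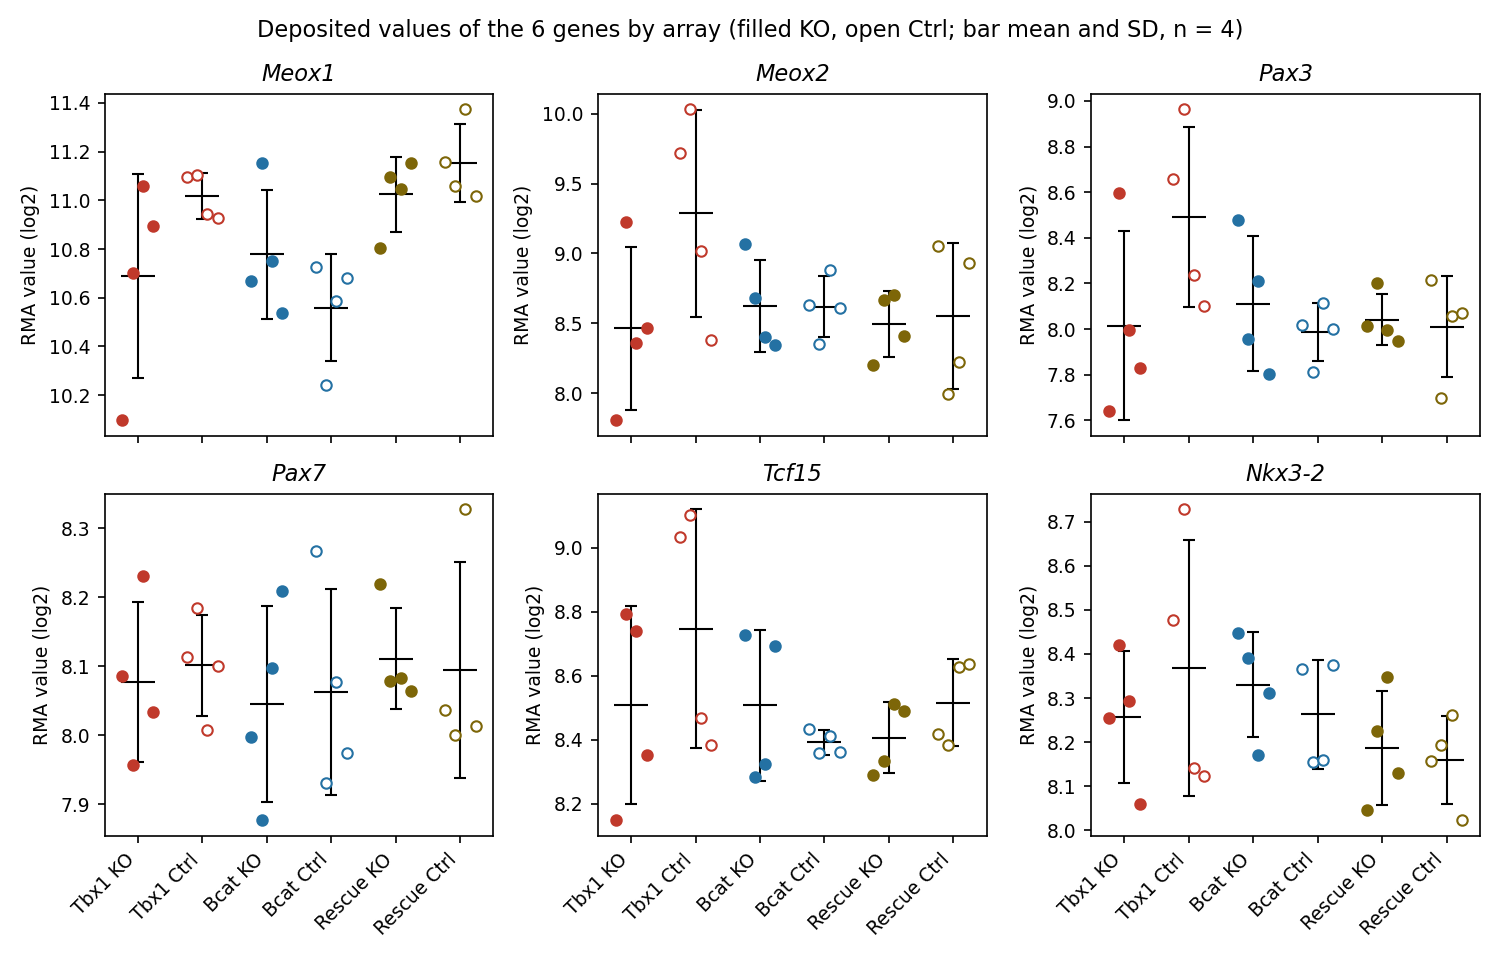
RMA values (log2, y axis, a separate scale for each gene) of the 6 genes on each of 24 arrays, by group (x axis), with filled points for KO and open points for Ctrl. Horizontal bars give the group mean and whiskers the SD of 4 arrays; Tbx1 KO 1 was lowest of all arrays for Meox1, Meox2, Pax3 and Tcf15, and no KO group separated from its Ctrl group.

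Meox2, a homeodomain factor of somite and limb muscle, had the widest range of the 6 genes. Its values in Tbx1 KO tissue were 7.81, 9.23, 8.36 and 8.46, against 9.72, 10.03, 9.02 and 8.38 in Tbx1 Ctrl tissue. The 2 highest of all 24 arrays were Tbx1 Ctrl arrays 2 and 1, the lowest was Tbx1 KO 1, and the groups overlapped because Tbx1 KO 2 was high and Tbx1 Ctrl 4 low. The mean was 8.46 ± 0.58 in Tbx1 KO and 9.29 ± 0.74 in Tbx1 Ctrl (SD, n = 4 each), a log2 difference of -0.82 (SE 0.30) or 0.565 times the Ctrl level. Only 2 of the 19938 genes had a lower log2 difference in that experiment, Zic2 (-0.85, adjusted p = 0.435 with limma) and Eif2s3y (-0.84, adjusted p = 0.9998), a Y-linked gene, both named after their values were seen. The Y-linked genes Uty (-0.77) and Kdm5d (-0.67) were also among the 8 lowest. Eif2s3y read 8.44, 10.16, 7.76 and 8.34 in Tbx1 KO, against 9.70, 9.46, 9.84 and 9.07 in Tbx1 Ctrl. Xist, transcribed from the inactive X chromosome of females and also looked up after these values were seen, read 6.52 in Tbx1 KO 2, 6.53 in Rescue KO 1 and 6.59 in Rescue Ctrl 1, against 9.98 to 12.43 on the other 21 arrays. Of these 3 arrays, Tbx1 KO 2 was the highest of its group for Meox2, Rescue KO 1 the lowest and Rescue Ctrl 1 the highest. The part of the sex of the pooled embryos in the Meox2 values was not tested. In the Bcat experiment Meox2 read 9.07, 8.68, 8.40 and 8.35 in Bcat KO, against 8.63, 8.35, 8.88 and 8.61 in Bcat Ctrl, a log2 difference of 0.01 (SE 0.30). In the Rescue experiment it read 8.20, 8.67, 8.70 and 8.41 in Rescue KO, against 9.05, 7.99, 8.22 and 8.93 in Rescue Ctrl, a log2 difference of -0.05 (SE 0.30). The Rescue Ctrl arrays enclosed all Rescue KO arrays, 2 above and 1 below them with array 3 just above the lowest KO value.

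Pax3, a paired-box factor of the dermomyotome and of the dorsal neural tube, followed the same arrays. It read 7.64, 8.60, 7.99 and 7.83 in Tbx1 KO, against 8.66, 8.96, 8.24 and 8.10 in Tbx1 Ctrl. All Tbx1 KO arrays but array 2 lay below every Tbx1 Ctrl array. The mean was 8.01 ± 0.41 in Tbx1 KO and 8.49 ± 0.39 in Tbx1 Ctrl (SD, n = 4 each), a log2 difference of -0.48 (SE 0.18), with 31 genes lower. Pax3 was the 1 gene of the 6 whose Tbx1 KO value lay below the same-numbered Tbx1 Ctrl value in 4 of 4 pairs, by 1.02, 0.37, 0.24 and 0.27 on the log2 scale. In the Bcat experiment it read 8.48, 7.96, 8.21 and 7.80 in Bcat KO, against 8.02, 7.81, 8.12 and 8.0 in Bcat Ctrl, and the log2 difference was 0.12 (SE 0.18). The Rescue experiment gave 8.02, 8.20, 8.0 and 7.95 in Rescue KO, against 8.22, 7.70, 8.06 and 8.07 in Rescue Ctrl, a log2 difference of 0.03 (SE 0.18).

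Meox1, the paralogue of Meox2, took a different course. Its values were 10.10, 10.70, 11.06 and 10.90 in Tbx1 KO, against 11.10, 11.10, 10.94 and 10.93 in Tbx1 Ctrl. Tbx1 KO arrays 1, 2 and 4 lay below every Tbx1 Ctrl array, array 4 only just, and KO array 3 lay above the lower 2 of them. The mean was 10.69 ± 0.42 in Tbx1 KO and 11.02 ± 0.09 in Tbx1 Ctrl (SD, n = 4 each), a log2 difference of -0.33 (SE 0.16). In the Bcat experiment the direction was the other way, with 10.67, 11.15, 10.75 and 10.54 in Bcat KO, against 10.73, 10.24, 10.59 and 10.68 in Bcat Ctrl, a log2 difference of 0.22 (SE 0.16). Leaving out each Bcat array in turn gave 0.09 (without Bcat KO 2) to 0.30 (without Bcat KO 4), and it was 0.11 without the low Bcat Ctrl 2. Rescue KO read 10.80, 11.09, 11.05 and 11.15, against 11.16, 11.06, 11.37 and 11.02 in Rescue Ctrl, a log2 difference of -0.13 (SE 0.16).

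Tcf15, the bHLH factor of somite epithelium, read 8.15, 8.79, 8.74 and 8.35 in Tbx1 KO, against 9.03, 9.10, 8.47 and 8.38 in Tbx1 Ctrl. Tbx1 Ctrl 1 and 2 were the highest of all 24 arrays, and arrays 3 and 4 of the same group lay among the KO values. The log2 difference was -0.24 (SE 0.15) in Tbx1 KO, 0.12 (SE 0.15) in Bcat KO and -0.11 (SE 0.15) in Rescue KO. Bcat KO read 8.73, 8.28, 8.33 and 8.69, on both sides of the Bcat Ctrl arrays, which were the narrowest group of this gene at 8.36 to 8.44. In the Rescue experiment the values were 8.29 to 8.51 in Rescue KO, against 8.38 to 8.64 in Rescue Ctrl.

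Nkx3-2, the sclerotome homeodomain factor, read 8.26, 8.42, 8.29 and 8.06 in Tbx1 KO, against 8.48, 8.73, 8.14 and 8.12 in Tbx1 Ctrl, a log2 difference of -0.11 (SE 0.11). The lower Tbx1 KO mean rested on the high Tbx1 Ctrl 2, without which the log2 difference was 0.01. Its values were 8.17 to 8.45 in Bcat KO, against 8.15 to 8.38 in Bcat Ctrl (log2 difference 0.07), and 8.05 to 8.35 in Rescue KO, against 8.02 to 8.26 in Rescue Ctrl (log2 difference 0.03). Pax7, the dermomyotome and muscle progenitor factor, stayed between 7.88 and 8.33 on all 24 arrays, and its log2 differences were -0.02 in Tbx1 KO, -0.02 in Bcat KO and 0.02 in Rescue KO (SE 0.08 each). Whether Pax7 read above background was not tested. Its SD over the 24 arrays, 0.111, was larger than that of 46.4% of all genes, whereas the SD of Meox2, 0.511, was larger than that of 99.5%. The SD exceeded that of 98.2% of genes for Pax3, 98.1% for Meox1, 95.5% for Tcf15 and 83.9% for Nkx3-2.

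The lower Tbx1 KO values came mostly from the arrays numbered 1 and 2. Over those arrays alone the Tbx1 KO minus Tbx1 Ctrl log2 difference was -1.36 for Meox2, -0.70 for Meox1, -0.69 for Pax3, -0.60 for Tcf15 and -0.26 for Nkx3-2. Over arrays 3 and 4 it was -0.29 for Meox2 and -0.26 for Pax3, while Meox1 (0.04), Tcf15 (0.12) and Nkx3-2 (0.04) were slightly above 0. The methods describe batches of arrays, but neither they nor the labels say which array was in which batch, so whether these numbers mark batches is not known. Leaving out each Tbx1 array in turn gave -1.13 to -0.58 for Meox2, -0.67 to -0.32 for Pax3, -0.45 to -0.13 for Meox1 and -0.36 to -0.12 for Tcf15. Meox1 and Tcf15 were nearest to 0 without Tbx1 KO 1, and Meox2 and Pax3 without Tbx1 Ctrl 2. With array weights in the fit the difference was -0.49 for Meox2, -0.35 for Pax3, -0.34 for Meox1, -0.12 for Tcf15 and -0.000951 for Nkx3-2.

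**Figure D2:**
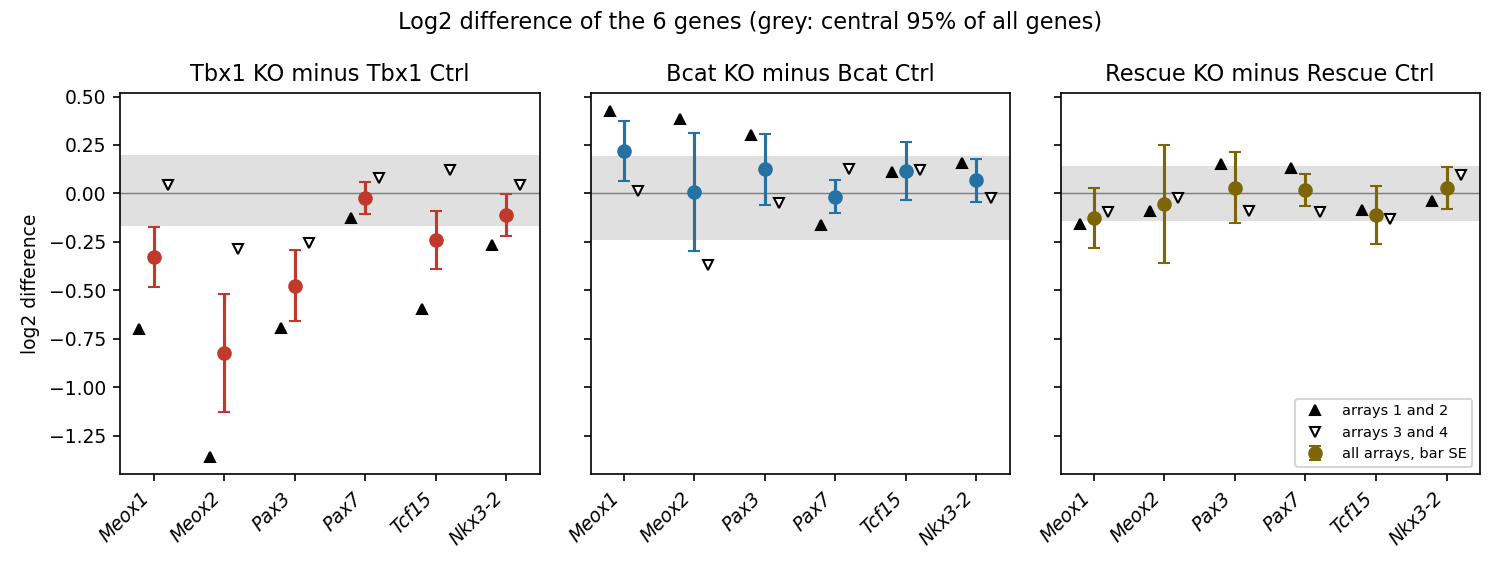
KO minus Ctrl log2 difference (y axis) of the 6 genes (x axis) in the 3 experiments, as the value over all arrays with its SE (circles), over arrays 1 and 2 (filled triangles) and over arrays 3 and 4 (open triangles), against the central 95% of all genes (grey). In the Tbx1 experiment Meox2 lay at -0.82 over all arrays, -1.36 over arrays 1 and 2 and -0.29 over arrays 3 and 4.

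Across all 6 groups, the highest group mean of Meox2, Pax3, Tcf15 and Nkx3-2 was that of Tbx1 Ctrl. For Meox1 the order from high to low was Rescue Ctrl (11.15), Rescue KO (11.02), Tbx1 Ctrl (11.02), Bcat KO (10.78), Tbx1 KO (10.69) and Bcat Ctrl (10.56). For Meox2 it was Tbx1 Ctrl (9.29), Bcat KO (8.63), Bcat Ctrl (8.62), Rescue Ctrl (8.55), Rescue KO (8.49) and Tbx1 KO (8.46). Of the 30 pairs of neighbouring groups in these orders over the 6 genes, all 30 overlapped and none had a gap between means above the larger of the 2 SDs. The orders cross experiments, so genotype, strain background and any batch cannot be told apart in them.

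Several of the genes varied together from array to array. Over 24 arrays, which share embryo pools, experiment and any batch, Pax3 correlated with Meox2 at Pearson's r = 0.90 (Spearman's rho = 0.79), and at r = 0.80 without the 2 arrays farthest from the median. The r was 0.87 after group means were subtracted and 0.97, 0.75 and 0.74 within the Tbx1, Bcat and Rescue experiments. Meox2 with Tcf15 (r = 0.74), Pax3 with Tcf15 (r = 0.75) and Tcf15 with Nkx3-2 (r = 0.65) rested on the Tbx1 experiment. Over the 16 arrays outside it they had r = 0.25, 0.20 and 0.22, while Meox2 with Pax3 kept r = 0.70. Meox1 with Meox2 had r = 0.29 over all arrays and 0.05 without the 2 farthest, and Pax7 had r between -0.12 and 0.27 with each of the other 5 genes.

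**Figure D3:**
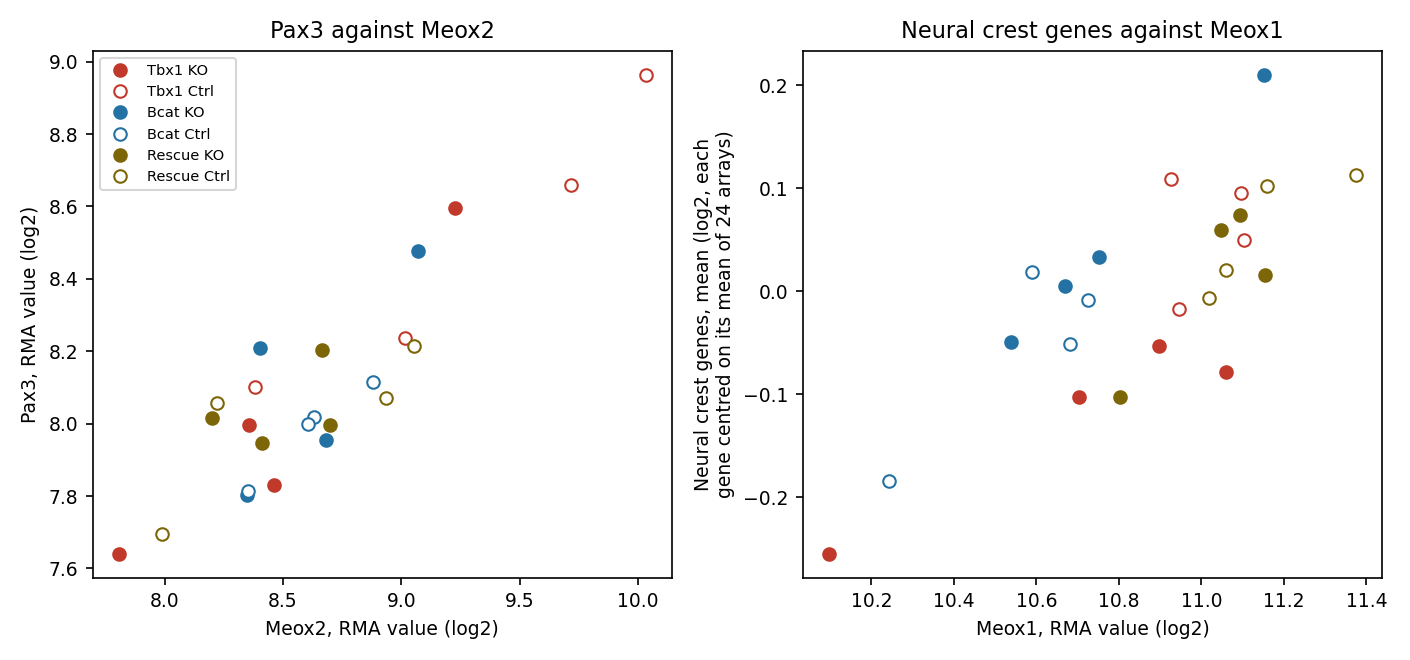
Left, Pax3 against Meox2 (RMA values, log2); right, the mean of 7 neural crest genes (log2, each gene centred on its mean over 24 arrays) against Meox1 (RMA value, log2), with 1 point per array, filled for KO and open for Ctrl. Pax3 followed Meox2 (r = 0.90) and the neural crest mean followed Meox1 (r = 0.79).

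The genes most like each of the 6 were ranked by Pearson's r over the 24 arrays. Meox2 was most like Fap (r = 0.95), a fibroblast protease, and then Dmrt2 (0.93) and Sim1 (0.92), both dermomyotome transcription factors. Pax3 was most like Fap (0.91), Meox2 (0.90) and Sim1 (0.87). After group means were subtracted these values were 0.87 or above. Meox1 was instead most like Sox10 (0.83), a neural crest and glial factor, then Prxl2b (0.78) and Acot7 (0.74). Tcf15 was most like Fgfbp3 (0.87), Scn1a (0.83) and Trpm8 (0.82), and Nkx3-2 most like Pdzd4 (0.79), Psd2 (0.79) and 3930402G23Rik (0.77). Pax7 was most like Olfr140 (0.79), Cldn18 (0.78) and Krtap1-4 (0.78), an olfactory receptor, a tight junction gene and a hair keratin-associated gene. For these 4 genes the values after subtraction of group means were 0.68 to 0.88.

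The 6 genes were also set against lists of tissue genes, taken as the mean of each list per array. Each list carries the name of a tissue, and whether its signal came from that tissue here was not tested. Meox2 had r = 0.87 with the sclerotome list and 0.83 with the dermomyotome and myotome list, which contains Dmrt2 and Sim1. The genes of a list were centred but not scaled, so those that vary most weigh most in its mean. In the sclerotome list these were Zic1 and Tbx18, with an SE of the log2 difference of 0.30 and 0.27, against 0.14 or less for the others. The part of single genes in the list correlations was not tested. Within the Tbx1, Bcat and Rescue experiments, Meox2 had r = 0.95, 0.85 and 0.55 with sclerotome and 0.90, 0.68 and 0.53 with dermomyotome and myotome. Pax3 had r = 0.87 with sclerotome (0.97, 0.78 and 0.36 within the experiments), 0.79 with dermomyotome and myotome (0.85, 0.58 and 0.50) and 0.68 with the neural tube list (0.81, 0.43 and 0.15). Tcf15 had r = 0.88 with dermomyotome and myotome (0.94, 0.74 and 0.82) and 0.76 with presomitic mesoderm genes (0.87, 0.68 and 0.56), and Nkx3-2 had r = 0.75 with Hox paralogues 4 to 6 (0.91, 0.30 and 0.60). Meox1 had r = 0.79 with the neural crest list, which contains Sox10, and this was 0.84 after group means were subtracted. It was 0.83, 0.96 and 0.87 within the Tbx1, Bcat and Rescue experiments, while Meox1 had r = 0.20 with sclerotome. With heart tube genes Meox1 had r = -0.65, which was -0.33 after group means were subtracted and -0.50, -0.71 and -0.26 within the experiments. No r of Pax7 with any list exceeded 0.35.

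**Figure D4:**
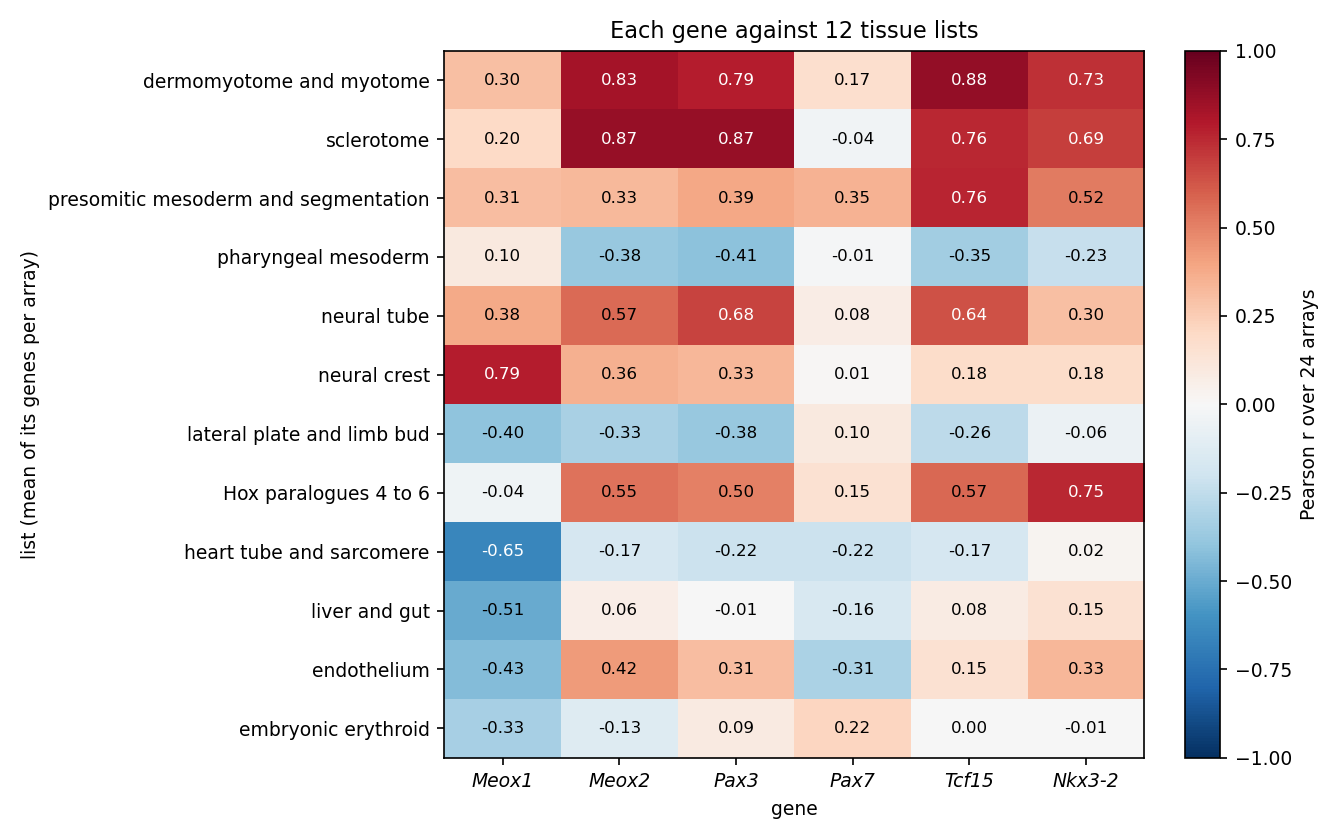
Pearson's r over 24 arrays (colour and printed value) between each of the 6 genes (columns) and the per-array mean of each of 12 tissue lists (rows). Meox2, Pax3, Tcf15 and Nkx3-2 had r of 0.69 or more with the sclerotome list and 0.73 or more with the dermomyotome list, and Meox1 had r = 0.79 with the neural crest list. Within the Tbx1, Bcat and Rescue experiments, r with sclerotome was 0.90, 0.35 and 0.39 for Tcf15 and 0.84, 0.47 and 0.32 for Nkx3-2. For Nkx3-2 with the dermomyotome list it was 0.80, 0.65 and 0.16.

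Other genes that act in somites were read from 3 lists. They are not limited to somites (Pax9 is also a pharyngeal pouch factor), and which cells gave their values was not tested. None of the 14 dermomyotome and myotome genes, 11 sclerotome genes and 13 presomitic and segmentation genes measured passed an adjusted p of 0.05 in any experiment with limma. In the Tbx1 experiment, 5, 5 and 1 of them had an unadjusted p under 0.05, all with a lower KO mean. Over all genes, 1.95% had an unadjusted p under 0.05 with a lower KO mean, 2.17% with a higher one, and 58.7% had a negative difference. The list medians were -0.07, -0.20 and -0.04, against -0.01 over all genes. The smallest p-values belonged to Myf5, the first myogenic factor (log2 difference -0.33, adjusted p = 0.460), Sim1 (-0.44, 0.893) and Eya2 (-0.25, 0.900) in the first list. In the sclerotome list they belonged to Pax9, a sclerotome and pharyngeal pouch factor (-0.36, adjusted p = 0.376), Sox9, the cartilage regulator (-0.20, 0.751), and Foxc2 (-0.25, 0.893), and in the presomitic list to Ripply1 (-0.19, 0.796), Lfng (-0.27, 0.9998) and Cyp26a1 (-0.16, 0.9998). Leaving out 1 array moved 6 of these 9 values by over 1.5 times: Sim1 to -0.28 (without Tbx1 Ctrl 2), Eya2 to -0.15, Foxc2 to -0.16 and Lfng to -0.09 (each without Tbx1 KO 1), Ripply1 to -0.10 (without Tbx1 Ctrl 1) and Cyp26a1 to -0.01 (without Tbx1 KO 3). The list gene furthest down was Dmrt2 (-0.66, adjusted p = 0.983), the one whose arrays most resembled Meox2 after Fap.

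In Bcat KO the presomitic genes had a median log2 difference of 0.11, with 11 of 13 above 0, against 0.01 over all genes. Over all genes, 42.6% had a negative difference in that experiment. Msgn1 (0.21, adjusted p = 0.854), Lfng (0.31, 0.854) and Dll3 (0.30, 0.855), genes of the segmentation program, had the smallest p-values. The other lists had medians of 0.05 and 0.01, led by En1 (0.22, adjusted p = 0.854), Chrna1 (0.18, 0.855) and Myod1 (0.16, 0.855), and by Pax1 (0.18, 0.851), Pax9 (0.14, 0.871) and Tbx18 (-0.36, 0.871). Leaving out 1 array brought Pax9 to 0.07 and Tbx18 to -0.17 (both without Bcat Ctrl 2) and Myod1 to 0.10 and Msgn1 to 0.09 (both without Bcat KO 4). In Rescue KO the medians were -0.04, 0.02 and -0.01. The smallest p-values there were those of Sim1, Met and Lbx1, of Zic1, Pdgfra and Pax1, and of Ripply1, Msgn1 and Ripply2, all with an adjusted p of 0.9999. The difference between the Tbx1 and Bcat effects was tested for the 38 list genes, and the smallest adjusted p was 0.158, for Pax9 (-0.50).

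Lists named for other tissues were read on the same arrays. The heart tube list holds sarcomere genes, and the authors read muscle structural genes as differentiation within the AHF. Which cells gave these values was not tested. In the Tbx1 experiment the neural tube genes had a KO mean below the Ctrl mean in 11 of 11 cases (median -0.19) and the neural crest genes in 7 of 7 (median -0.17), while heart tube genes were above in 12 of 12 (median 0.81) and liver and gut genes in 6 of 6 (median 0.44). In the Bcat experiment these lists had the opposite signs, with neural tube above in 11 of 11 (median 0.26), neural crest above in 7 of 7 (0.11) and heart tube below in 12 of 12 (-1.07). Over all genes, 58.7%, 42.6% and 60.9% had a negative difference in the Tbx1, Bcat and Rescue experiments. In the Rescue experiment neural tube genes were above in 10 of 11 (0.19), although Pax3 and Meox2 there differed by 0.03 and -0.05. Heart tube genes were also above there, in 10 of 12 (0.20). Neural crest genes were below in 5 of 7 (-0.02) and liver and gut genes in 3 of 6 (0.06). List means per array were taken after centring each gene. The neural crest mean spanned -0.25 to -0.05 in Tbx1 KO and -0.02 to 0.11 in Tbx1 Ctrl. The heart tube mean spanned 0.28 to 0.65 in Tbx1 KO and -0.70 to -0.07 in Tbx1 Ctrl. By contrast, the neural tube means overlapped, at -0.41 to 0.47 in Tbx1 KO and 0.15 to 0.38 in Tbx1 Ctrl. So did the liver and gut means, at 0.05 to 1.04 in Tbx1 KO and -0.31 to 0.46 in Tbx1 Ctrl. Bcat Ctrl 2 stood apart, with a heart tube mean of 2.25 against 0.20 to 0.88 in the other Bcat Ctrl arrays. Without it the Bcat medians were -0.62 for heart tube (11 of 12 below 0), 0.06 for neural crest (5 of 7 above 0), 0.22 for neural tube (11 of 11) and -0.05 for liver and gut genes, a setting chosen after seeing the data. That array also had the lowest Meox1 value outside the Tbx1 experiment. In the Tbx1 experiment the remaining lists had medians of -0.02 for pharyngeal mesoderm, 0.13 for lateral plate and limb bud, 0.03 for Hox paralogues 4 to 6, 0.05 for endothelium and 0.23 for embryonic erythroid genes. The part of these tissues in the values of the 6 genes was not tested. No gene of the 12 lists other than Tbx1 passed the adjusted p of 0.05, and Tbx1 did not pass with a replicate block or with its experiment fitted alone.

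**Figure D5:**
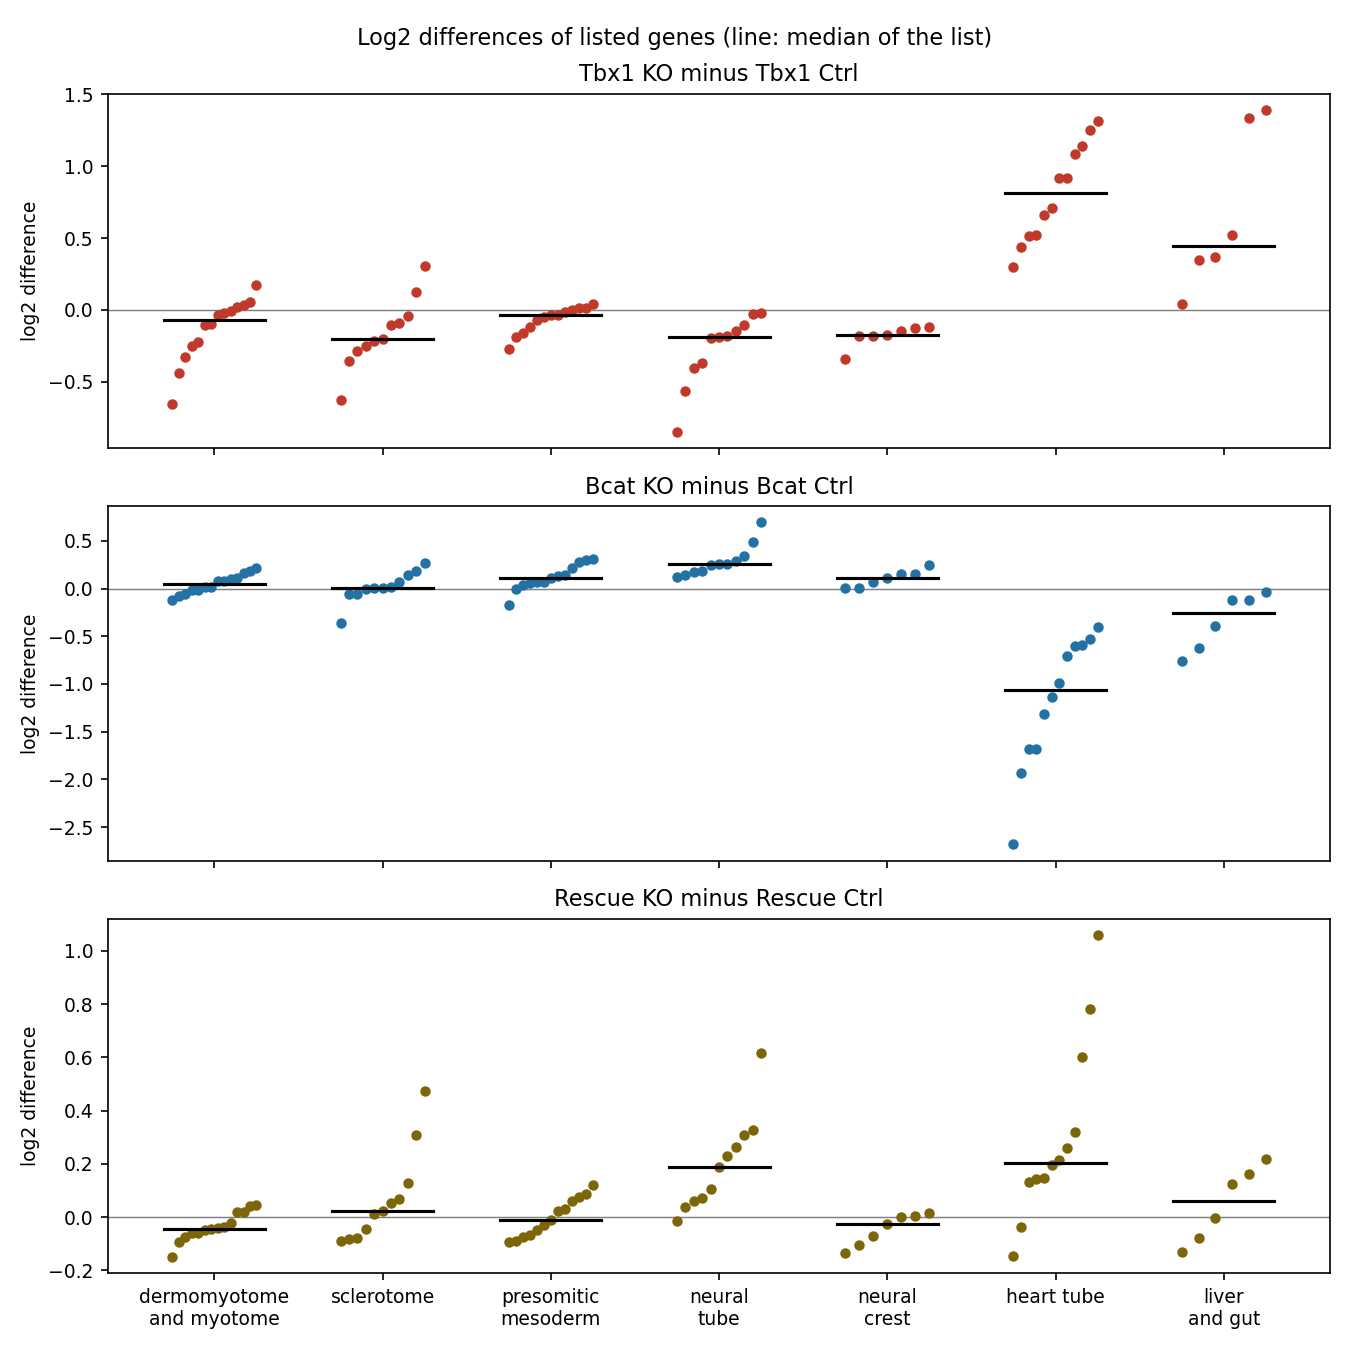
KO minus Ctrl log2 difference (y axis, a separate scale for each experiment) of each gene in 7 lists (x axis), with 1 point per gene and a line at the list median. In Tbx1 KO the sclerotome median was -0.20 and the heart tube median 0.81, and in Bcat KO the heart tube median was -1.07 (-0.62 without Bcat Ctrl 2).

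Isl1, a second heart field marker, lay between 10.62 and 10.84 in Tbx1 KO, against 10.50 and 10.82 in Tbx1 Ctrl, and between 10.47 and 10.93 in the other 4 groups. No other tissue was on the arrays, so the level of this gene cannot check the tissue label. The targeted genes were read in every group. Tbx1 lay between 10.98 and 11.43 in Tbx1 KO, against 11.77 to 11.99 in Tbx1 Ctrl (log2 difference -0.64, adjusted p = 0.00626 with limma). With same-numbered arrays as a replicate block the adjusted p was 0.122. It was 0.185 with that experiment fitted alone and 0.00374 with arrays 1 and 2 against 3 and 4 as a block. The KO and Ctrl arrays did not overlap. Tbx1 lay between 11.39 and 11.51 in Rescue KO, against 11.58 to 11.95 in Rescue Ctrl (-0.31, adjusted p = 0.9999). Ctnnb1, the β-catenin gene, lay between 13.09 and 13.27 in Bcat KO, against 13.19 to 13.23 in Bcat Ctrl (-0.03, adjusted p = 0.958), so its level did not separate these groups. It lay between 13.11 and 13.14 in Rescue KO, against 13.16 to 13.20 in Rescue Ctrl, without overlap (-0.05, adjusted p = 0.9999, where 2.24% of all genes had every KO array below every Ctrl array), and between 13.10 and 13.33 in Tbx1 KO, against 13.16 to 13.39 in Tbx1 Ctrl (-0.04, adjusted p = 0.9998). Where its probes lie relative to the floxed exons was not determined.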

How the data were processed

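Total RNA (100 ng per array) from pooled, microdissected AHF tissue was hybridised to Affymetrix Mouse Gene ST 1.0 arrays. The deposited values are log2 intensities that the authors made with the oligo package by RMA (background correction, quantile normalization, gene level summarization). RMA can compress differences of dim genes. According to the methods, arrays of a genotype were run in several batches, batch effects were seen above all in the Tbx1 and β-catenin experiments, ComBat was applied, poor arrays were dropped to leave 4 per genotype, and limma had batch as a block. The sources used here name neither the batch of each array nor whether ComBat had been run on the deposited values, so that block could not be fitted. They do not say whether arrays came from separate litters, so p-values measure the spread between these arrays, whose number limits the precision.

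Of 35556 probe sets, 21789 had 1 gene symbol, 1621 several and 12146 none in the platform annotation. Only those with 1 symbol were used, and probe sets of a gene were averaged, which gave 19938 genes (999 with more than 1 probe set). Of these, 19856 were matched to the RefSeq gene table (GRCm38.p6). limma 3.58.1 in R 4.3.3 fitted 6 group means over the 24 arrays (lmFit and eBayes, 18 residual degrees of freedom), with Benjamini-Hochberg adjustment over all genes and a threshold of 0.05. The fit was also tested on simulated data, made with the gene means and residual SDs of these arrays. The 6 genes and the tissue lists were chosen with earlier results of these data known. The genes named are the 6, Tbx1 and Ctnnb1, any list gene past the threshold, the 3 somite list genes with the smallest p-values per list and experiment, and the 3 genes most like each of the 6. Promoters came from RefSeq, cut to the bases before the start, and a window inside the annotated gene (Pax7) was left out.

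KO and Ctrl groups share array numbers. In the Tbx1 experiment, same-numbered arrays deviated together in 4 of 4 pairs (r = 0.157 to 0.494), which counted as pairing there by the data alone. Only 1 of 4 KO arrays correlated best with its own number, arrays 1 and 2 matching each other's Ctrl array and array 3 matching Ctrl 4, so the numbers may mark the split of arrays 1 and 2 from 3 and 4 rather than pairs. With the numbers as a replicate block, 0 genes were called in the Tbx1 experiment, against 6 without it. Alternatives were each array centred on its median, quantile normalization repeated, the probe set with the highest mean per gene, genes with a mean under 6 left out, each experiment fitted alone, blocks of arrays, array weights, a trended and robust eBayes, each array left out, and an unadjusted p under 0.05 with a fold over 1.5.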

Additional observations from a re-analysis of the deposited data

Results flagged for a closer look

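The outer array of each group was compared with the other 3 for each of the 6 genes, and 2 of 36 groups had an array set far from the rest. Both were Pax7: Rescue KO 1 read 8.22, above the other Rescue KO arrays at 8.06 to 8.08, and Rescue Ctrl 3 read 8.33, above the other Rescue Ctrl arrays at 8.0 to 8.04. Chance sets about 1 in 20 groups apart in this way.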

How the results depend on the processing

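With 0 somite list genes called, the number of genes called in the Tbx1 experiment was 6, and it was 2 with each array centred on its median, 10 with arrays 1 and 2 against 3 and 4 as a block, and 0 with each experiment fitted alone, with same-numbered arrays as a replicate block, with arrays 1 and 2 only and with arrays 3 and 4 only. With an unadjusted p under 0.05 and a fold over 1.5 it was 65, which calls 2 somite list genes, Dmrt2 and Zic1, named after their values were seen. Leaving out 1 array gave 0 (without Tbx1 KO 1) to 32 genes (without Tbx1 KO 2) and 0 to 1 somite list genes, the 1 being Sox9 (log2 difference -0.29) without Tbx1 KO 2. It gave 2 genes without Tbx1 Ctrl 1 and 1 gene without Tbx1 Ctrl 3 or without Tbx1 Ctrl 4. In the Bcat experiment the count was 0, and it was 1 with quantile normalization repeated, 2 with the replicate block, 3 with arrays 1 and 2 only and 90 at the unadjusted threshold. Leaving out 1 array there gave 0 to 42, the 42 without Bcat Ctrl 4. In the Rescue experiment the count was 0, and it was 1 with arrays 1 and 2 only, 1 with array weights and 2 at the unadjusted threshold. The replicate block (pairing by number) changed no call of a somite list gene, and same-numbered arrays correlated at 0.0889 to 0.479 in the Bcat experiment and -0.0638 to 0.256 in the Rescue experiment. The call of Tbx1 itself was lost with the replicate block (adjusted p = 0.122) and with its experiment fitted alone (0.185). With the block, the SE of the Tbx1 KO difference was 0.29 for Meox2 and 0.14 for Pax3, against 0.30 and 0.18 without it. The causes of these changes were not tested, and the settings that leave arrays out also have fewer arrays. Over 11 settings, the sign of the Tbx1 KO minus Tbx1 Ctrl difference turned in 0 for Meox2 and Pax3 and in 1 for each of Meox1, Pax7, Tcf15 and Nkx3-2, which was arrays 3 and 4 only. Of these settings, the probe set choice, the filter on means, the separate fits, the blocks and the trended eBayes left every one of these differences unchanged. With groups of equal size and 1 probe set per gene they could not change them, so they say nothing about the sign. Leaving out 1 array moved 6, 4 and 5 of the 9 named somite list differences by over 1.5 times in the Tbx1, Bcat and Rescue experiments and turned the sign of 0.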
